A study of Mus musculus with 24 samples.

Results

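Axon guidance genes were followed in the parietal cortex of mice after a permanent stroke. The set holds the semaphorins, their plexin and neuropilin receptors, the ephrins and Eph receptors, the Slits and Robos, and the netrins, netrin-Gs, Unc5 receptors and Dcc. Members were chosen by gene symbol alone, as all genes of these named families, and 70 of the 46983 gene rows in the count tables carry such a symbol. They are 36 ligands and 34 receptors. The netrin gene Ntn3 was not analysed here. Of the 70 members, 67 had enough counts to be tested (34 ligands and 33 receptors).

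Guidance proteins steer growing axons by attraction and repulsion. Semaphorins act through plexins, and secreted class 3 semaphorins mostly need a neuropilin as co-receptor. Ephrin-A ligands are anchored to the membrane by a lipid and ephrin-B ligands span it, and both bind Eph receptor tyrosine kinases on touching cells. Slits repel through Robos, and netrins attract through Dcc or repel through Unc5 receptors. In the adult cortex many of these proteins stay on neurons, where they shape synapses, and others pattern blood vessels, glia and immune cells.

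The study compared 4 groups of 6 C57Black/6 mice, with 1 library for each animal. MCAO mice of 3 or 18 months had the middle cerebral artery coagulated and cut under isoflurane, through a drilled hole in the skull, and their parietal cortex was taken 3 days later. Control mice of 3 or 18 months were intact, so each MCAO comparison includes anaesthesia and the operation itself. The labels describe the lesions of this model as small, and the share of infarcted tissue in each sample is not given in the sources used here. RNA was counted from the 3′ ends of transcripts, with 3299128 to 13082872 gene counts per library. Levels below are CPM, a gene's counts relative to the total of its library, after scaling by the trimmed mean of M values (TMM). They are given as the lowest, the median and the highest of a group's 6 libraries. They serve to compare groups within a gene. Changes are log2 changes ± their standard error from edgeR's quasi-likelihood test, two-sided. The p-values were adjusted by the Benjamini-Hochberg method over the 14599 genes tested, and a gene is called where its adjusted p is under 0.05.

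Some libraries stood apart before any guidance gene was compared. In MCAO libraries A and C at 3 months, 52 and 18 genes with a group median of 10 CPM or more lay under 10% of that median, against 0 to 5 genes in each of the other 22 libraries. Unc5a was the only guidance gene among them. Library A also had the highest summed CPM of 8 microglia markers in its group (1861 CPM, and 1508 CPM in library C, against 721 to 926 CPM in the other 4) and of 10 endothelial markers (1324 CPM, and 766 CPM in library C, against 491 to 877 CPM). MCAO library A of 3 months also had the highest sums of its group for monocyte and macrophage markers (1138 CPM) and for fibroblast and meninges markers (801 CPM). Its sums of neuronal markers (10873 CPM) and erythrocyte markers (4.84 CPM) were the lowest of the group. It had the most gene counts of all libraries, 13082872. Choroid plexus and ependyma markers summed to 1421 CPM in MCAO library C and 799 CPM in control library D at 3 months. The cause of these differences was not tested.

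After MCAO guidance genes changed in both directions. At 3 months 12 of the 67 tested members rose (17.9%) and 16 fell (23.9%), where 20.1% of all tested genes rose and 17.3% fell. At 18 months 18 rose (26.9%) and 22 fell (32.8%), where 23.7% of all tested genes rose and 21.5% fell. The MCAO and control libraries did not overlap in 8 of the 67 members at 3 months, where 18.8% of all tested genes did not overlap. At 18 months they did not overlap in 24 of the 67, where 27% of all tested genes did not. The median log2 change of the members was -0.15 at 3 months and -0.14 at 18 months, against -0.04 and -0.03 over all genes. At 3 months the share that rose lay a little under that of all genes and the share that fell a little above it. These counts describe the tested members and carry no test of their own.

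The comparisons at 3 and 18 months share no library, but they share the estimate of the spread, the TMM scaling and the filter on low counts. Of the members that rose, 11 did so at both ages, which is 91.7% of those at 3 months and 61.1% of those at 18 months. Of those that fell, 14 did so at both ages (87.5% of those at 3 months and 63.6% of those at 18 months). No member was called in opposite directions, and 24 were called at neither age. The point estimate was larger at 18 months for 10 of the 11 that rose at both ages and for 10 of the 14 that fell at both. The overlap between ages was not counted over all genes, so these shares are not shown to be particular to guidance genes. Both neuropilins rose at both ages, whereas most of the called Eph receptors fell: 1 rose and 5 fell of 13 at 3 months, and 2 rose and 8 fell at 18 months.

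**Figure D1:**
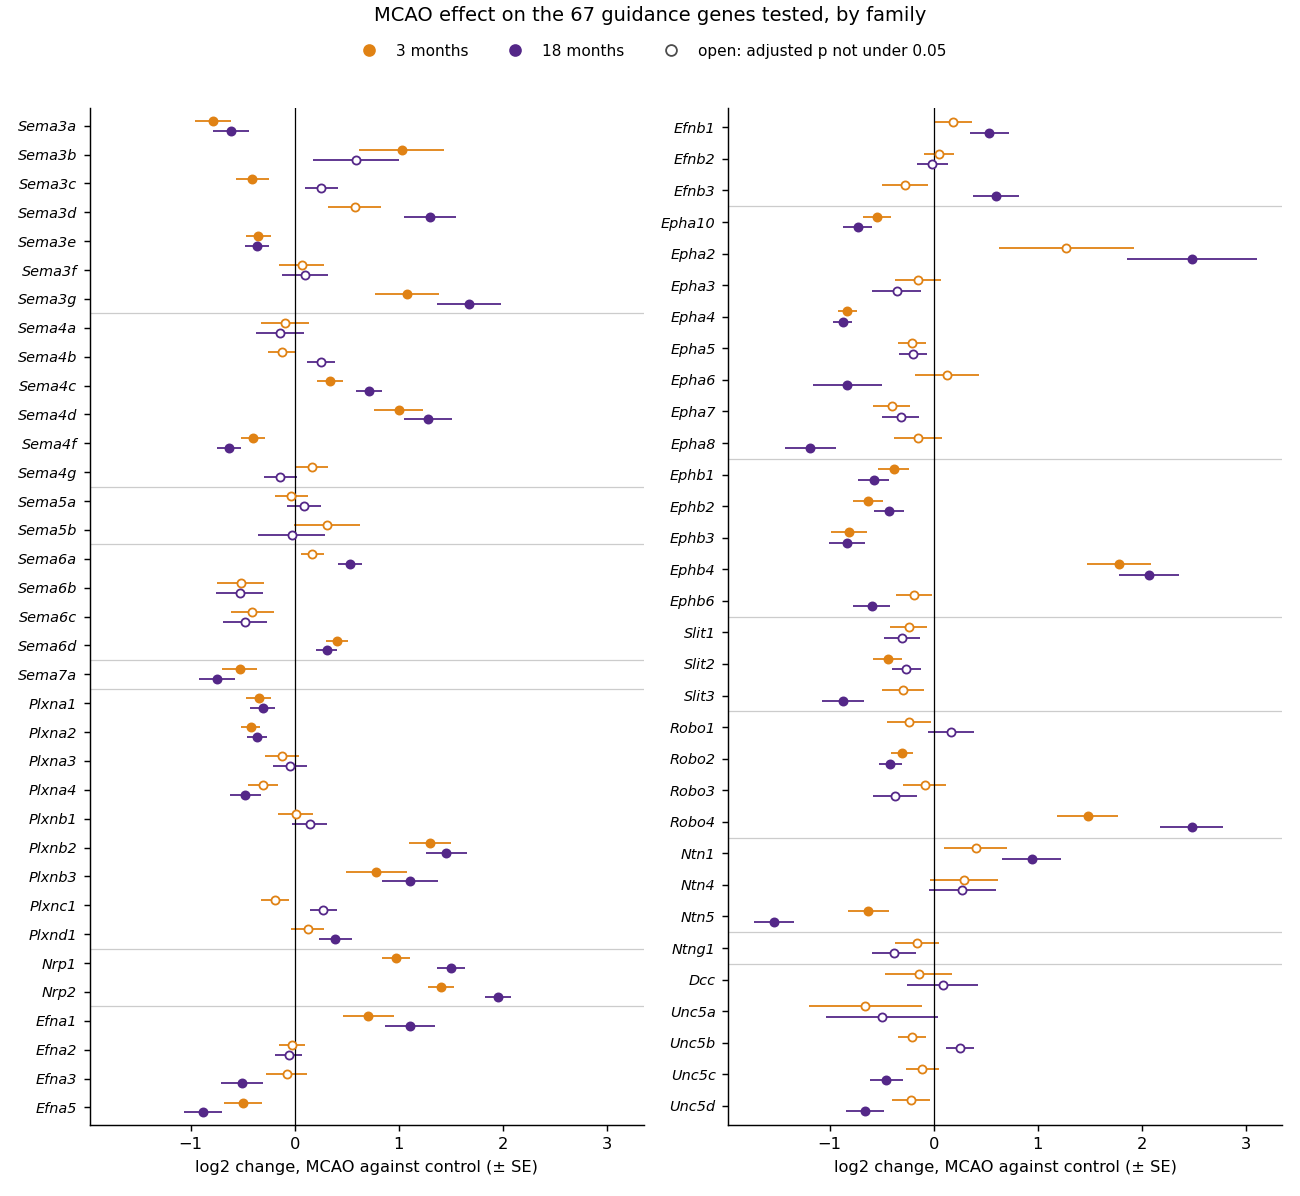
Log2 change (MCAO against control, ± SE, 6 libraries per group) of each of the 67 tested members, grouped by family, with 3 months in orange and 18 months in purple and open points where the adjusted p was not under 0.05. Nrp1, Nrp2, Ephb4, Robo4 and Plxnb2 lie to the right at both ages, and Epha4, Ephb1, Ephb2, Ephb3 and Ntn5 lie to the left.

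These splits depend on the scale. With libraries scaled by total counts, 14 members rose and 8 fell at 3 months, and 21 rose and 15 fell at 18 months. With scaling by added spike-in RNA, 5 rose and 33 fell at 3 months, and 11 rose and 27 fell at 18 months. Over all 14599 tested genes, total counts gave 3722 that rose and 1211 that fell at 3 months, and 4134 and 2145 at 18 months. Spike-in scaling gave 1411 that rose and 6178 that fell over all genes at 3 months, and 2007 and 4119 at 18 months. Spike-in scaling moved the median log2 change of all genes by -0.45 at 3 months and -0.29 at 18 months, and total counts moved it by 0.13 and 0.11. All changes below are relative to TMM scaling. A fit of the young groups alone, or a fit with no filter on low counts, gave 10 that fell at 3 months in place of 16. Over all genes those fits gave 1572 of 13699 and 1656 of 26233 that fell, in place of 2519 of 14599. Without MCAO libraries A and C, 12 members rose and 11 fell at 3 months. Without the libraries high in choroid plexus transcripts, 10 rose and 12 fell.

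Markers of the cortex's cell types moved in the same comparisons. Their lists were chosen by hand, with earlier results of these data known. Of 14 neuronal markers 9 fell at 3 months and 11 at 18 months. Their summed level was 10873 to 12406 CPM in MCAO cortex against 15968 to 17620 CPM in control cortex at 3 months, and 8098 to 11366 CPM against 15228 to 16836 CPM at 18 months. Of 10 endothelial markers 8 rose at 3 months and 9 at 18 months. They summed to 491 to 1324 CPM in MCAO cortex against 393 to 488 CPM in control cortex at 3 months, and to 753 to 1248 CPM against 353 to 403 CPM at 18 months. No neuronal or endothelial marker was at 0 in a whole group.

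All 8 microglia markers rose at both ages. They summed to 721 to 1861 CPM in MCAO cortex against 302 to 347 CPM in control cortex at 3 months, and to 933 to 1160 CPM against 284 to 390 CPM at 18 months. The 8 tested of 10 monocyte and macrophage markers rose as well. The list summed to 274 to 1138 CPM in MCAO cortex against 51.3 to 71.6 CPM in control cortex at 3 months, and to 681 to 1356 CPM against 47.3 to 122 CPM at 18 months, with Arg1 and Ly6c2 at 0 in control cortex at 18 months. Of 7 tested pericyte and smooth muscle markers 6 rose at 3 months and 7 at 18 months. All 6 markers of oligodendrocyte precursors and 7 of 8 of fibroblasts and meninges rose at both ages. Of 8 oligodendrocyte markers 4 rose at 3 months and 6 at 18 months, and of 10 astrocyte markers 4 rose and 2 fell at each age. The 3 tested of 11 neutrophil and lymphocyte markers rose at both ages, with 6 of the 11 at 0 in control cortex at 3 months and 3 at 18 months. Cxcr2, among these 3, was at 0 in control cortex of both ages, and Arg1 in that of 18 months. There they passed the filter on low counts through other groups, so those rises are not independent of it. Of 4 tested erythrocyte markers 2 rose at 3 months and 4 at 18 months, and of 3 tested choroid plexus markers 0 and 1. In bulk tissue, fewer cells of a type and less RNA per cell cannot be told apart, and the part of these shifts in the guidance gene changes was not tested.

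The promoters of 4 members are shown as examples of both directions: Nrp1 and Nrp2 rose and Epha4 and Ephb3 fell at both ages. Each is the stretch of 250 bases before the gene's start in the RefSeq annotation of GRCm38.p6, printed 5′ to 3′ on the gene's strand. The gene positions given below come from the GENCODE annotation, where some starts differ. By those positions the Nrp1 window lies inside the gene, and the Nrp2 and Ephb3 windows run past the gene's start. The windows are chr8:128358823-128359072, plus strand, for Nrp1; chr1:62703067-62703316, plus strand, for Nrp2; chr1:77515089-77515338, minus strand, for Epha4; and chr16:21204545-21204794, plus strand, for Ephb3. Capitals mark ACGTG and GCGTG on either strand (CACGT and CACGC on the other), the core letters recognised by hypoxia-inducible factors.
Nrp1: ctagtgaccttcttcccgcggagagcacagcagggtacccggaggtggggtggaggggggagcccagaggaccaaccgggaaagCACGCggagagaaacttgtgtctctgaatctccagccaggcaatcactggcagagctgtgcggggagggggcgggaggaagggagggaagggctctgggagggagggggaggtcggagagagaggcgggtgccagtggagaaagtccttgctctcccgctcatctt
Nrp2: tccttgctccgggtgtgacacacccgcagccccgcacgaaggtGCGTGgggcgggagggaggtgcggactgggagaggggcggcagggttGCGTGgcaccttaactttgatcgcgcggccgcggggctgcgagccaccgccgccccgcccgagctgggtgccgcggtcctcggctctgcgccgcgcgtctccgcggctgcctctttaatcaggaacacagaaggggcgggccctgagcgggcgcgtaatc
Epha4: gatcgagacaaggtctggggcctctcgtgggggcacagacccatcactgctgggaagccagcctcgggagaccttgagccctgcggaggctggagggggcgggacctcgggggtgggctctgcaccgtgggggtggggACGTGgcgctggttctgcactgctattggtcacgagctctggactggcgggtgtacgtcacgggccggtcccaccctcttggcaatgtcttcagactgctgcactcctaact
Ephb3: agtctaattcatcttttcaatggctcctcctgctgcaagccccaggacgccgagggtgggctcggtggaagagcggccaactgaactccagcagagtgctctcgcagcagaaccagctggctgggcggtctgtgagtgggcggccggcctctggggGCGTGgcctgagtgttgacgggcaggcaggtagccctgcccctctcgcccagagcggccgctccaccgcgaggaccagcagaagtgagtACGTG
Of these windows Epha4 holds ACGTG, Ephb3 holds both motifs, and Nrp1 and Nrp2 hold GCGTG. On either strand, ACGTG occurs in 12 of the 76 windows found for 60 members (15.8%), against 5444 of all 32851 windows (16.6%). GCGTG occurs in 26 of the member windows (34.2%) and in 28.2% of all windows. At least 1 of the motifs occurs in 32 member windows (42.1%) and in 38.6% of all windows. Among members that rose at both ages 5 of 17 windows (11 genes) hold at least 1 of them, and among those that fell at both 8 of 15 windows (13 genes). The motif TTCNNNGAA, bound by STAT factors, occurs in 2 of the 76 member windows (2.63%) and in 7.02% of all windows, and in none of the windows of members called at both ages in 1 direction. The member windows had a median GC content of 64.2% and 15.5 CpG, against 52.4% and 6 over all windows. These matches describe the letters of a window.

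Among the ligands, the 7 class 3 semaphorins, which are secreted, split. Sema3g, made by endothelial cells, and Sema3a, the prototype repellent that collapses growth cones through Nrp1, changed in opposite directions at both ages. Sema3g had 4.47, 5.77 and 13.2 CPM in MCAO cortex and 2.76, 3.06 and 6.13 CPM in control cortex at 3 months. It had 6.30, 10.6 and 13.2 CPM in MCAO cortex and 1.46, 2.76 and 5.90 CPM in control cortex at 18 months. The groups overlapped at 3 months, where control library E was high, and were apart at 18 months. Its log2 change was 1.08 ± 0.31 (adjusted p = 0.00673) at 3 months and 1.67 ± 0.31 (adjusted p = 6.24e-05) at 18 months. Sema3a had 15.5, 20.2 and 25.4 CPM in MCAO cortex and 23.7, 35.1 and 45.4 CPM in control cortex at 3 months. It had 15.7, 21.6 and 27.6 CPM in MCAO cortex and 23.6, 29.0 and 44.1 CPM in control cortex at 18 months, and the highest MCAO libraries reached into the control range at both ages. The log2 change was -0.79 ± 0.17 (adjusted p = 0.00064) at 3 months and -0.61 ± 0.17 (adjusted p = 0.00441) at 18 months.

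The other class 3 ligands gave fewer calls. Sema3d, a secreted guidance cue of axons and endothelial cells, had 14.8, 16.8 and 19.6 CPM in MCAO cortex and 6.01, 6.74 and 8.11 CPM in control cortex at 18 months, with no overlap and a log2 change of 1.30 ± 0.25 (adjusted p = 0.000106). At 3 months it had 3.36, 9.55 and 17.3 CPM in MCAO cortex and 4.97, 6.48 and 9.92 CPM in control cortex, overlapping, with 0.58 ± 0.26 (adjusted p = 0.0779). MCAO library A was the lowest young library, and the young change passed the threshold without MCAO library A of 3 months or control library E of 3 months (0.73 to 0.79, adjusted p = 0.00242 to 0.0368). Sema3e, which binds Plxnd1 without a neuropilin, fell at both ages, with log2 changes of -0.35 ± 0.12 and -0.36 ± 0.12. Its call at 3 months ended without MCAO library A of 3 months (adjusted p = 0.0507). Sema3c fell at 3 months (-0.41 ± 0.16, adjusted p = 0.0422), a call that ended without MCAO libraries A, B, C or D of 3 months or control libraries A, B or E of 3 months or control library A of 18 months (adjusted p = 0.0519 to 0.122), and was at 0.26 ± 0.16 at 18 months. Sema3b rose at 3 months (1.03 ± 0.41, adjusted p = 0.0474), where its highest libraries, MCAO C (12.2 CPM) and control D (5.37 CPM), were those high in choroid plexus markers. That call ended in 15 of the 24 fits that left out 1 library, with a log2 change of 0.63 (adjusted p = 0.207) without MCAO library C. Without both choroid plexus libraries it held, with a log2 change of 1.07 (adjusted p = 0.0317). Sema3f, a Nrp2 ligand, was at 0.07 ± 0.21 and 0.10 ± 0.22.

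Of the 6 class 4 semaphorins, which span the membrane, 2 rose and 1 fell at each age. Sema4d, also known as CD100, a ligand of Plxnb1 found on immune cells and oligodendrocytes, rose by 1.00 ± 0.24 at 3 months and 1.28 ± 0.23 at 18 months on the log2 scale. Sema4c, a ligand of Plxnb2, had 29.8, 39.6 and 50.7 CPM in MCAO cortex and 26.5, 31.7 and 35.4 CPM in control cortex at 3 months. It had 44.8, 50.3 and 60.1 CPM in MCAO cortex and 23.9, 32.7 and 36.4 CPM in control cortex at 18 months, apart at 18 months and overlapping at 3 months. This gave a log2 change of 0.34 ± 0.13 (adjusted p = 0.0388) at 3 months, where it turned to -0.12 under spike-in scaling, and 0.72 ± 0.13 (adjusted p = 4.22e-05) at 18 months. The young call ended without MCAO libraries B, C or F of 3 months or control libraries A, B or C of 3 months (adjusted p = 0.0666 to 0.121), and without A and C of MCAO together.

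Sema4f, a transmembrane semaphorin of neurons, fell at both ages. It had 28.9, 33.4 and 42.4 CPM in MCAO cortex and 40.7, 45.8 and 52.1 CPM in control cortex at 3 months, with 1 MCAO library, A, inside the control range. It had 21.4, 24.1 and 28.4 CPM in MCAO cortex and 32.0, 35.8 and 47.2 CPM in control cortex at 18 months, where the groups were apart. Its log2 change was -0.40 ± 0.11 (adjusted p = 0.0061) at 3 months and -0.63 ± 0.11 (adjusted p = 5.15e-05) at 18 months. Sema4a, Sema4b and Sema4g were not called after MCAO, with log2 changes of -0.09 ± 0.23, -0.12 ± 0.13 and 0.16 ± 0.16 at 3 months. At 18 months they were at -0.14 ± 0.23, 0.25 ± 0.13 and -0.14 ± 0.16, and Sema4b passed the threshold there without MCAO library B of 18 months (0.32, adjusted p = 0.0484).

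Class 5 semaphorins were not called, with Sema5a at -0.03 ± 0.16 and 0.09 ± 0.16 and Sema5b at 0.31 ± 0.32 and -0.03 ± 0.32 at 3 and 18 months. In class 6, Sema6a, a ligand of Plxna2 and Plxna4, had 27.9, 30.6 and 33.3 CPM in MCAO cortex and 17.1, 21.2 and 25.9 CPM in control cortex at 18 months, apart, and 23.5, 28.9 and 36.0 CPM in MCAO cortex and 23.0, 25.3 and 30.9 CPM in control cortex at 3 months, overlapping. The log2 change was 0.53 ± 0.11 (adjusted p = 0.000369) at 18 months and 0.17 ± 0.11 (adjusted p = 0.247) at 3 months. Sema6d, a ligand of Plxna1, rose by 0.41 ± 0.10 (adjusted p = 0.00268) at 3 months and 0.31 ± 0.10 (adjusted p = 0.0163) at 18 months, and under spike-in scaling both estimates turned, to -0.06 and -0.0038. Sema6b and Sema6c had point estimates of -0.52 ± 0.23 and -0.41 ± 0.21 at 3 months and -0.53 ± 0.23 and -0.48 ± 0.21 at 18 months, none of them called. Sema6b passed at 3 months without MCAO library A of 3 months or MCAO library D of 18 months (-0.61 to -0.52, adjusted p = 0.0309 to 0.0485), and at 18 months without MCAO libraries A or C of 18 months or control library D of 18 months (-0.66 to -0.62, adjusted p = 0.0249 to 0.0398). Sema6c passed at 3 months without MCAO library A of 3 months (-0.57, adjusted p = 0.0296), and at 18 months without MCAO libraries A or D of 3 months or MCAO library A of 18 months or control library D of 18 months (-0.61 to -0.48, adjusted p = 0.0243 to 0.0451).

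Sema7a, the lipid-anchored semaphorin that binds Plxnc1 and integrin β1, fell at both ages. It had 62.9, 74.8 and 84.8 CPM in MCAO cortex and 74.3, 112 and 124 CPM in control cortex at 3 months. It had 45.4, 72.1 and 101 CPM in MCAO cortex and 87.6, 122 and 152 CPM in control cortex at 18 months. The ranges overlapped at both ages. This gave a log2 change of -0.53 ± 0.17 (adjusted p = 0.0159) at 3 months and -0.75 ± 0.17 (adjusted p = 0.000748) at 18 months, and without MCAO libraries A and C of 3 months the young call ended.

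The ephrins changed in both directions. Of the 4 tested ephrin-A ligands, Efna1, a ligand of Epha2 present on endothelium, rose at both ages, and Efna5, a repellent of cortical axons, fell at both. Efna1 had 4.47, 6.64 and 9.82 CPM in MCAO cortex and 2.09, 4.19 and 6.03 CPM in control cortex at 3 months, overlapping. It had 5.91, 8.68 and 12.5 CPM in MCAO cortex and 3.50, 4.02 and 4.50 CPM in control cortex at 18 months, apart. Its log2 change was 0.71 ± 0.25 (adjusted p = 0.0255) at 3 months and 1.11 ± 0.24 (adjusted p = 0.000478) at 18 months, and the young call ended without MCAO libraries D or F of 3 months or control libraries C or D of 3 months (adjusted p = 0.052 to 0.0788). Efna5 had 11.0, 17.2 and 25.4 CPM in MCAO cortex and 17.1, 24.2 and 30.5 CPM in control cortex at 3 months, overlapping. It had 9.42, 14.5 and 19.1 CPM in MCAO cortex and 22.4, 27.2 and 33.9 CPM in control cortex at 18 months, apart. The log2 change was -0.50 ± 0.18 (adjusted p = 0.0325) at 3 months and -0.88 ± 0.18 (adjusted p = 0.00024) at 18 months, and the young call ended without MCAO libraries A, C or F of 3 months or control libraries A or F of 3 months (adjusted p = 0.0567 to 0.0892).

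Efna3 fell at 18 months (-0.51 ± 0.20, adjusted p = 0.0406), a call that ended without MCAO libraries D, E or F of 18 months or control libraries A, C, E or F of 18 months (adjusted p = 0.0609 to 0.0849), and Efna2 was at -0.03 ± 0.13 and -0.06 ± 0.13. Efna4 was not tested for its low counts: its pooled counts were 35 in MCAO and 2 in control cortex at 3 months, and 29 in MCAO and 4 in control cortex at 18 months. Of the 3 ephrin-B ligands, which also signal back into their own cell, none was called at 3 months and 2 rose at 18 months. Efnb1 had 20.3, 26.3 and 37.6 CPM in MCAO cortex and 11.2, 18.3 and 27.8 CPM in control cortex at 18 months, overlapping, with 0.54 ± 0.18 (adjusted p = 0.0182), a call that ended without MCAO library C of 18 months (adjusted p = 0.0656). In young mice it had 16.0, 22.1 and 26.0 CPM in MCAO cortex and 14.8, 19.0 and 26.1 CPM in control cortex (0.19 ± 0.18). Efnb3 had 81.0, 91.0 and 108 CPM in MCAO cortex and 37.5, 65.9 and 73.8 CPM in control cortex at 18 months, apart, with 0.60 ± 0.22 (adjusted p = 0.0282), a call that ended without MCAO library D of 18 months or control libraries B or C of 18 months (adjusted p = 0.0586 to 0.0744). At 3 months it had 17.6, 51.5 and 66.4 CPM in MCAO cortex and 40.7, 55.7 and 65.3 CPM in control cortex, with -0.28 ± 0.22 (adjusted p = 0.357) and its lowest values in MCAO libraries A (17.6 CPM) and C (26.8 CPM). Efnb2, the arterial ligand of Ephb4, was at 0.05 ± 0.15 and -0.01 ± 0.15, with 95% intervals of -0.24 to 0.34 and -0.30 to 0.28.

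The Slits, secreted repellents, had no member that rose. Slit3 had 2.32, 3.56 and 5.12 CPM in MCAO cortex and 5.60, 6.56 and 7.56 CPM in control cortex at 18 months, apart, with a log2 change of -0.87 ± 0.20 (adjusted p = 0.000778). In young mice it had 3.25, 4.36 and 5.27 CPM in MCAO cortex and 3.62, 4.97 and 8.09 CPM in control cortex, overlapping, with control library C high and -0.29 ± 0.20 (adjusted p = 0.271). Slit2 fell at 3 months (-0.44 ± 0.14, adjusted p = 0.0128) and was at -0.26 ± 0.14 (adjusted p = 0.131) at 18 months, where it passed without control library A of 18 months (-0.36, adjusted p = 0.0183). Slit1 was at -0.24 ± 0.18 and -0.31 ± 0.18.

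Among the netrins, Ntn5, a netrin of neural progenitors and motor neuron exit points, had the steepest fall of any called member at 18 months. It had 9.42, 12.7 and 14.8 CPM in MCAO cortex and 27.3, 33.8 and 45.5 CPM in control cortex at 18 months, with a wide gap between the groups. It had 6.89, 14.5 and 17.7 CPM in MCAO cortex and 13.0, 23.7 and 27.4 CPM in control cortex at 3 months, overlapping, with MCAO library F the lowest. This gave a log2 change of -1.54 ± 0.19 (adjusted p = 2.69e-07) at 18 months and -0.63 ± 0.19 (adjusted p = 0.0124) at 3 months. Ntn5 shares exon sequence with Sec1 on the other strand, and the strand setting of the counting is not given in the sources used here, so reads of the pair cannot be told apart.

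Ntn1, the founding attractant that binds Dcc and Unc5 receptors, had 5.04, 6.30 and 7.43 CPM in MCAO cortex and 1.62, 3.38 and 4.55 CPM in control cortex at 18 months, apart, with 0.95 ± 0.28 (adjusted p = 0.00777). At 3 months it had 2.23, 2.69 and 6.67 CPM in MCAO cortex and 1.19, 2.73 and 3.83 CPM in control cortex, overlapping, with 0.40 ± 0.30 (adjusted p = 0.311). Ntn4, a netrin of basement membranes, was at 0.30 ± 0.33 and 0.28 ± 0.32. The lipid-anchored Ntng1 was at -0.16 ± 0.21 and -0.38 ± 0.21, and its aged change passed without MCAO library F of 18 months (-0.73, adjusted p = 0.000211). Ntng2 was not tested, with pooled counts of 4 in MCAO and 2 in control cortex at 3 months and of 0 in MCAO and 3 in control cortex at 18 months.

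Among the receptors, both neuropilins rose at both ages with no overlap. Neuropilins bind class 3 semaphorins and vascular endothelial growth factor (VEGF), Nrp1 mainly in arteries and axons and Nrp2 also in veins and lymphatics. Nrp2 (chromosome 1, 62703285 to 62818695, GRCm38) had 51.8, 70.6 and 80.1 CPM in MCAO cortex and 21.9, 25.7 and 28.7 CPM in control cortex at 3 months. It had 78.6, 91.0 and 108 CPM in MCAO cortex and 18.3, 24.3 and 26.9 CPM in control cortex at 18 months, and every MCAO library lay above every control library at each age. That is a rise of 2.65-fold at 3 months, or 1.41 ± 0.12 (adjusted p = 8.62e-10) on the log2 scale, and of 3.88-fold at 18 months, or 1.95 ± 0.12 (adjusted p = 1.58e-12). Nrp1 (chromosome 8, 128358604 to 128503363) had 51.1, 56.5 and 80.3 CPM in MCAO cortex and 25.4, 31.5 and 36.8 CPM in control cortex at 3 months. It had 67.9, 84.9 and 116 CPM in MCAO cortex and 25.9, 31.0 and 36.3 CPM in control cortex at 18 months, again apart. It rose by 0.97 ± 0.13 (adjusted p = 2.04e-06) at 3 months and 1.50 ± 0.13 (adjusted p = 7.52e-10) at 18 months.

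**Figure D2:**
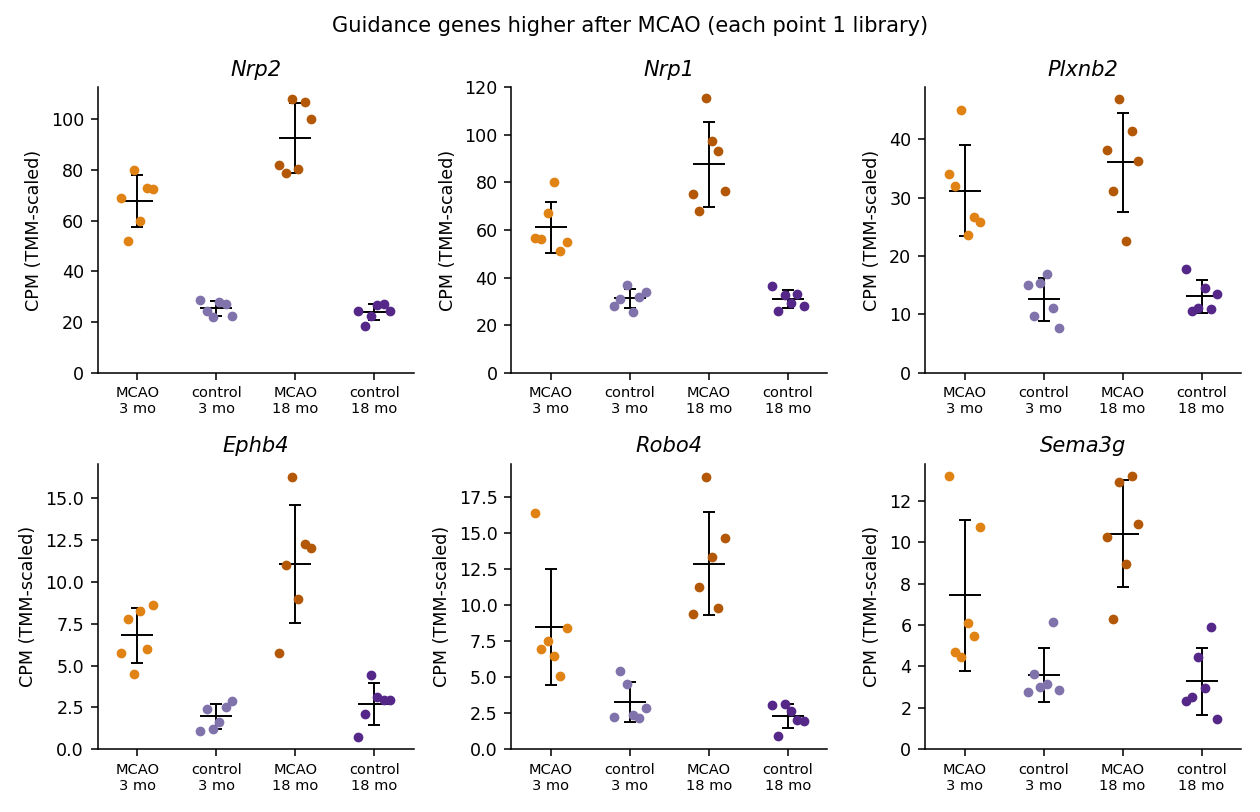
CPM (TMM-scaled) of 6 members that rose, 1 point per library, with mean and SD bars, in the order MCAO 3 months, control 3 months, MCAO 18 months and control 18 months. In the Nrp2 panel the MCAO libraries lie at 51.8 CPM or above and the control libraries at 28.7 CPM or below, and in the Robo4 panel MCAO library A of 3 months stands high at 16.4 CPM.

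Of the 9 plexins 2 rose and 2 fell at 3 months, and 3 rose and 3 fell at 18 months. The risers were B plexins and Plxnd1, and the members that fell were A plexins. Plxnb2, a receptor for class 4 semaphorins found on glia and myeloid cells, had 23.6, 29.3 and 45.0 CPM in MCAO cortex and 7.65, 13.0 and 16.9 CPM in control cortex at 3 months. It had 22.5, 37.2 and 46.9 CPM in MCAO cortex and 10.6, 12.2 and 17.8 CPM in control cortex at 18 months, with no overlap at either age. Its log2 change was 1.30 ± 0.20 (adjusted p = 9.02e-06) at 3 months and 1.46 ± 0.20 (adjusted p = 8.1e-07) at 18 months. Plxnb3, a Sema5a receptor of oligodendrocytes, had 3.28, 5.22 and 7.56 CPM in MCAO cortex and 2.40, 2.63 and 4.33 CPM in control cortex at 3 months. It had 4.87, 11.0 and 13.0 CPM in MCAO cortex and 2.77, 4.27 and 7.07 CPM in control cortex at 18 months, overlapping at both ages. It rose by 0.79 ± 0.29 (adjusted p = 0.0345) at 3 months, a call that ended without MCAO libraries B, E or F of 3 months or control libraries A, B, C or D of 3 months (adjusted p = 0.0644 to 0.0889), and by 1.11 ± 0.27 (adjusted p = 0.00123) at 18 months.

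Plxna2, a Sema6a and class 3 semaphorin receptor of neurons, had 94.4, 127 and 146 CPM in MCAO cortex and 149, 168 and 174 CPM in control cortex at 3 months. It had 112, 119 and 124 CPM in MCAO cortex and 139, 152 and 173 CPM in control cortex at 18 months, and the groups were apart at both ages. The log2 change was -0.42 ± 0.09 (adjusted p = 0.000655) at 3 months and -0.36 ± 0.09 (adjusted p = 0.002) at 18 months. Plxna1 fell at both ages, with log2 changes of -0.35 ± 0.12 at 3 months and -0.31 ± 0.12 at 18 months. These calls ended at 3 months without MCAO library D of 3 months or control libraries A or E of 3 months (adjusted p = 0.0582 to 0.0817), and at 18 months without MCAO libraries A, B, E or F of 18 months or control libraries A, B or E of 18 months (adjusted p = 0.0543 to 0.0971). Plxna4, which carries Sema3a signals with Nrp1, fell at 18 months (-0.47 ± 0.15, adjusted p = 0.00908) and was at -0.31 ± 0.14 (adjusted p = 0.0971) at 3 months, where it passed without MCAO library D of 3 months (-0.45, adjusted p = 0.00978). Plxnd1, the endothelial receptor of Sema3e, rose at 18 months (0.39 ± 0.16, adjusted p = 0.0428), a call that ended without MCAO libraries A, C or F of 18 months or control libraries A, E or F of 18 months (adjusted p = 0.0548 to 0.14). Plxna3, Plxnb1 and Plxnc1 were not called in either MCAO comparison, at -0.13 ± 0.16, 0.01 ± 0.17 and -0.19 ± 0.13 at 3 months and -0.04 ± 0.17, 0.14 ± 0.17 and 0.27 ± 0.13 at 18 months.

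The EphA receptors included 2 that fell at 3 months and 1 that rose and 4 that fell at 18 months, of 8 tested. Epha4, which restrains axon growth and dendritic spines in the cortex (chromosome 1, 77367185 to 77515088), had 175, 181 and 216 CPM in MCAO cortex and 323, 335 and 350.2 CPM in control cortex at 3 months. It had 123, 152 and 179 CPM in MCAO cortex and 249.6, 280.5 and 336 CPM in control cortex at 18 months, and every MCAO library lay under every control library at each age. This gave a log2 change of -0.83 ± 0.09 (adjusted p = 4.52e-08) at 3 months and -0.88 ± 0.09 (adjusted p = 1.1e-08) at 18 months, which is 0.562 and 0.545 times the control level. Epha10, a receptor without kinase activity, fell at both ages (-0.54 ± 0.14 and -0.73 ± 0.14). Epha2, known from epithelium and vessels, had 1.71, 2.21 and 3.78 CPM in MCAO cortex and 0, 0.384 and 1.58 CPM in control cortex at 18 months, apart. Its log2 change was 2.49 ± 0.63 (adjusted p = 0.00182), and 3.09 without control library C, its highest. Epha2 passed the filter on low counts through MCAO libraries only, so its rise is not independent of that filter. A fit of the 18-month groups alone did not test it. In young mice it had 0.156, 1.28 and 3.73 CPM in MCAO cortex and 0.184, 0.558 and 1.21 CPM in control cortex, overlapping, with 1.28 ± 0.65 (adjusted p = 0.125), and it passed without MCAO library A of 3 months (1.62, adjusted p = 0.0279).

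Epha8 had 2.10, 2.23 and 3.12 CPM in MCAO cortex and 3.50, 5.57 and 8.55 CPM in control cortex at 18 months, with no overlap, and a log2 change of -1.19 ± 0.25 (adjusted p = 0.000262). At 3 months it had 2.87, 5.95 and 7.77 CPM in MCAO cortex and 5.23, 6.00 and 7.01 CPM in control cortex, overlapping, with -0.15 ± 0.23 (adjusted p = 0.639). Epha6 had 0.381, 1.62 and 2.92 CPM in MCAO cortex and 1.85, 3.12 and 4.72 CPM in control cortex at 18 months, overlapping, with -0.83 ± 0.33 (adjusted p = 0.0415), and that call ended without MCAO libraries A, B, C or D of 18 months or control libraries C, D, E or F of 18 months (adjusted p = 0.0501 to 0.134). In young mice it had 2.01, 3.93 and 5.18 CPM in MCAO cortex and 2.41, 2.94 and 5.22 CPM in control cortex (0.13 ± 0.31). Epha3, Epha5 and Epha7 were not called, at -0.15 ± 0.22, -0.21 ± 0.13 and -0.40 ± 0.18 at 3 months and -0.36 ± 0.24, -0.20 ± 0.13 and -0.32 ± 0.18 at 18 months. Epha7 passed at 3 months without MCAO libraries D or E of 3 months or control library A of 3 months (-0.50 to -0.46, adjusted p = 0.0335 to 0.04999), and at 18 months without MCAO library A of 3 months (-0.32, adjusted p = 0.0404). Epha1 was not tested, with pooled counts of 6 in MCAO and 3 in control cortex at 3 months and of 13 in MCAO and 5 in control cortex at 18 months.

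Of the 5 EphB receptors, Ephb4, the venous receptor of Efnb2 (chromosome 5, 137350109 to 137378669), rose while the others that were called fell. Ephb4 had 4.47, 6.89 and 8.61 CPM in MCAO cortex and 1.10, 2.03 and 2.87 CPM in control cortex at 3 months. It had 5.76, 11.5 and 16.3 CPM in MCAO cortex and 0.719, 2.94 and 4.43 CPM in control cortex at 18 months, apart at both ages. It was 3.43-fold higher at 3 months (1.78 ± 0.31 on the log2 scale, adjusted p = 4.77e-05) and 4.20-fold higher at 18 months (2.07 ± 0.29, adjusted p = 1.39e-06). Ephb4 shares exon sequence with Zan on the other strand.

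Ephb3, a receptor of commissural and synaptic contacts (chromosome 16, 21204755 to 21223305), had 47.4, 71.7 and 121 CPM in MCAO cortex and 90.9, 136 and 164 CPM in control cortex at 3 months, overlapping through MCAO library A. It had 49.3, 63.2 and 84.3 CPM in MCAO cortex and 97.5, 119.5 and 128 CPM in control cortex at 18 months, apart. Its log2 change was -0.82 ± 0.17 (adjusted p = 0.00056) at 3 months and -0.83 ± 0.18 (adjusted p = 0.000313) at 18 months. Ephb1 and Ephb2, which cluster glutamate receptors at synapses, fell at both ages, with log2 changes of -0.38 ± 0.15 and -0.63 ± 0.14 at 3 months and -0.57 ± 0.15 and -0.43 ± 0.14 at 18 months. The young Ephb1 call ended without MCAO libraries A, B or F of 3 months or control libraries A, B, C or E of 3 months or control library A of 18 months (adjusted p = 0.0521 to 0.104), and the aged Ephb2 call without MCAO library C of 18 months (adjusted p = 0.0525). Ephb6, which lacks kinase activity, had 9.42, 13.1 and 16.3 CPM in MCAO cortex and 11.7, 19.7 and 25.8 CPM in control cortex at 18 months, overlapping, with -0.59 ± 0.18 (adjusted p = 0.00711), and at 3 months it had 15.8, 22.6 and 28.5 CPM in MCAO cortex and 22.3, 25.1 and 31.3 CPM in control cortex (-0.19 ± 0.17, not called).

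**Figure D3:**
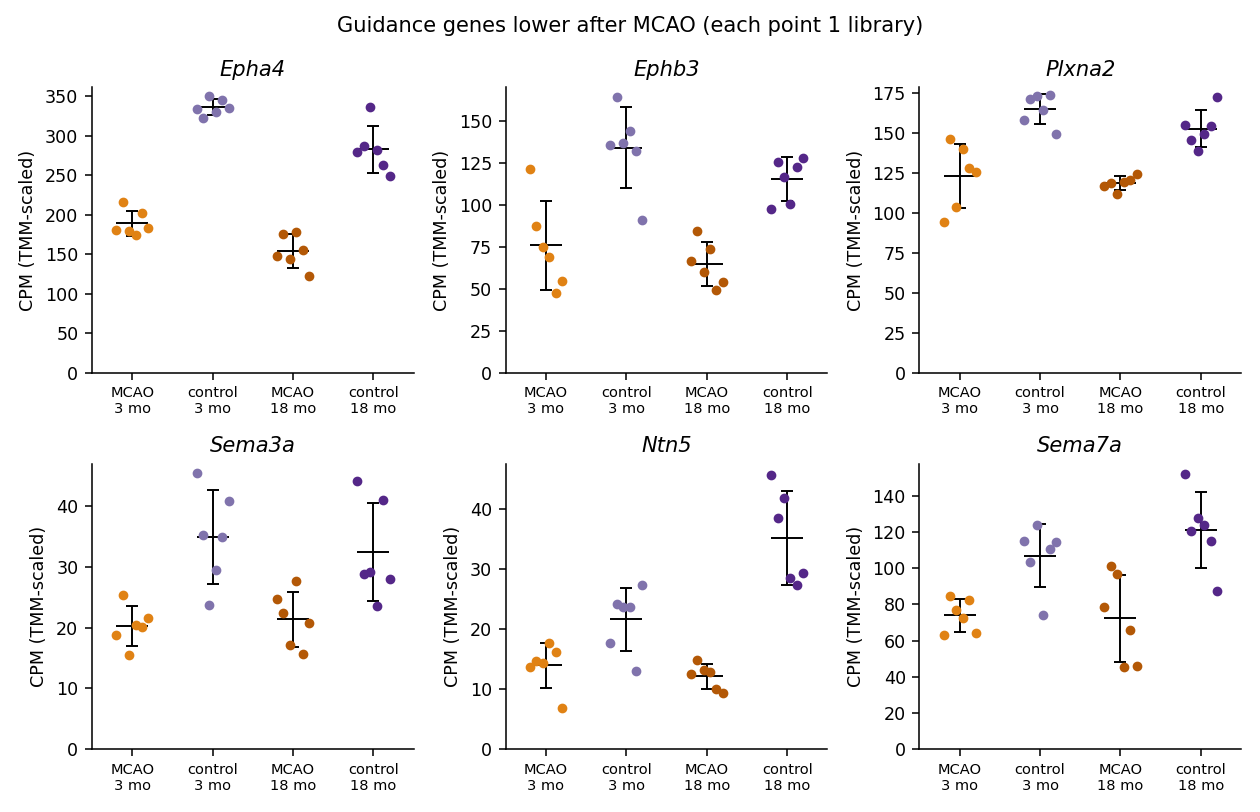
CPM (TMM-scaled) of 6 members that fell, 1 point per library, with mean and SD bars, in the order MCAO 3 months, control 3 months, MCAO 18 months and control 18 months. For Epha4 the highest MCAO library is at 216 CPM and the lowest control library of that age at 323 CPM, and for Ntn5 the groups are apart at 18 months and overlap at 3 months.

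Of the 4 Robos 1 rose and 1 fell at each age. Robo4, the endothelial Robo that stabilises vessels (chromosome 9, 37401897 to 37415115), had 9.38, 12.3 and 18.9 CPM in MCAO cortex and 0.925, 2.33 and 3.17 CPM in control cortex at 18 months, apart. It had 5.10, 7.23 and 16.4 CPM in MCAO cortex and 2.16, 2.63 and 5.43 CPM in control cortex at 3 months, overlapping through control library B, with MCAO library A the highest. The log2 change was 2.48 ± 0.30 (adjusted p = 1.74e-07) at 18 months and 1.48 ± 0.30 (adjusted p = 0.000272) at 3 months. Without MCAO library A of 3 months the young change was 1.15 (adjusted p = 0.00127). That library had the highest sums of endothelial, microglia, macrophage and fibroblast markers of its group and the most gene counts. The cause of its high Robo4 value was not tested. Robo2, a Slit receptor of neurons, had 47.9, 61.6 and 68.7 CPM in MCAO cortex and 67.7, 72.0 and 78.1 CPM in control cortex at 3 months. It had 36.3, 45.5 and 57.5 CPM in MCAO cortex and 56.2, 60.7 and 67.6 CPM in control cortex at 18 months, overlapping at both ages. It fell at both ages, with a log2 change of -0.30 ± 0.11 (adjusted p = 0.0271) at 3 months, a call that ended without MCAO libraries A or C of 3 months or control libraries D or E of 3 months or control library A of 18 months (adjusted p = 0.0503 to 0.0708), and of -0.42 ± 0.11 (adjusted p = 0.00246) at 18 months. Robo1 and Robo3 were not called, at -0.24 ± 0.22 and -0.09 ± 0.21 at 3 months and 0.17 ± 0.22 and -0.37 ± 0.21 at 18 months, where Robo3 passed without control library F of 18 months (-0.51, adjusted p = 0.0345).

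None of the 4 Unc5 receptors or Dcc was called at 3 months, and 2 of them fell at 18 months. Unc5d, a receptor of netrins and of Flrt2 in the upper cortical layers, had 15.0, 27.9 and 40.3 CPM in MCAO cortex and 39.3, 43.9 and 45.5 CPM in control cortex at 18 months, overlapping, with -0.66 ± 0.18 (adjusted p = 0.00443). At 3 months it had 25.1, 38.5 and 63.8 CPM in MCAO cortex and 41.6, 50.3 and 51.9 CPM in control cortex (-0.22 ± 0.18). Unc5c fell at 18 months with no overlap (-0.46 ± 0.16, adjusted p = 0.02), a call that ended without MCAO library C of 18 months (adjusted p = 0.0597). Unc5b, the endothelial netrin receptor, was at -0.21 ± 0.14 and 0.26 ± 0.13, and passed at 18 months without control library A of 18 months (0.33, adjusted p = 0.0489). Dcc, the attractive netrin receptor, was at -0.15 ± 0.32 and 0.09 ± 0.35, with 95% intervals of -0.78 to 0.49 and -0.59 to 0.76.

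Unc5a rested on the libraries that stood apart. It had 1.33 CPM in MCAO library A and 7.77 CPM in MCAO library C at 3 months, against 85.7 to 98.6 CPM in the other 4. Control libraries of that age held 64.3 to 124 CPM. At 18 months it had 40.0, 83.4 and 106 CPM in MCAO cortex and 64.5, 116 and 138 CPM in control cortex. This gave a log2 change of -0.66 ± 0.54 (adjusted p = 0.366) at 3 months and -0.50 ± 0.54 (adjusted p = 0.483) at 18 months. Without libraries A and C these became -0.10 ± 0.23 (adjusted p = 0.791) and -0.50 ± 0.20 (adjusted p = 0.0466). Both ages share the estimate of a gene's spread. Unc5a shares exon sequence with Hk3 on the other strand.

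Between intact cortex of aged and young mice 1 guidance gene was called. The median log2 change of the members was -0.11, against 0.0061 over all genes, and 12 members had an unadjusted p under 0.05. That last count was not made over all genes, so it is not shown to exceed their share. Of the 67 members, 0 rose and 1 fell in control cortex of 18 against 3 months, where 0.349% of all tested genes rose and 0.253% fell. The gene was Slit2 (chromosome 5, 47983138 to 48307733). It had 29.9, 52.5 and 58.3 CPM in control cortex at 18 months and 73.9, 83.6 and 91.3 CPM at 3 months, with no overlap. Its log2 change was -0.78 ± 0.14 (adjusted p = 0.0029), and under spike-in scaling it was -0.72 (adjusted p = 0.347), no longer called. Ntn5 had 27.3, 33.8 and 45.5 CPM in control cortex at 18 months and 13.0, 23.7 and 27.4 CPM at 3 months, a log2 change of 0.70 ± 0.19 (adjusted p = 0.0959). It passed with DESeq2 (0.72 ± 0.20, adjusted p = 0.0298), in a fit of the control groups alone (adjusted p = 0.0368), and without MCAO library F of 3 months (0.70, adjusted p = 0.0394).

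After MCAO more members were called between the ages. With 18 against 3 months in MCAO cortex, 7 members rose (6.4% of all tested genes rose) and 10 fell (4.51% of all genes fell). These comparisons share the MCAO libraries with those above. Spike-in scaling gave 5 that rose and none that fell, and moved the median of all genes by 0.21. Over all genes it gave 646 that rose and 25 that fell, in place of 934 and 659. Without MCAO libraries A and C of 3 months 6 rose and 14 fell, and without the libraries high in choroid plexus transcripts 5 rose and 7 fell. A fit of the MCAO groups alone called 3 that rose and 4 that fell, and over all genes 382 and 225 of 14078. Leaving out MCAO library C of 18 months gave 11 calls, of which 5 fell, and leaving out MCAO library E of 3 months gave 6 that fell. Of the neuronal markers 6 of 14 fell with age after MCAO, and 3 of 10 endothelial and 4 of 8 oligodendrocyte markers rose. Rising markers also numbered 4 of 4 tested for erythrocytes, 2 of 3 for neutrophils and lymphocytes, 2 of 6 for oligodendrocyte precursors, 2 of 8 each for monocytes and macrophages and for fibroblasts and meninges, and 1 each for astrocytes and microglia. MCAO library F of 18 months had 1275 CPM of erythrocyte markers, where its group's median was 81.9 CPM and the young MCAO libraries had 4.84 to 54.7 CPM. The part of these markers in the guidance gene changes was not tested.

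The members higher in aged MCAO cortex were Nrp1, Nrp2, Plxnc1, Plxnb3, Unc5b, Efnb3 and Sema3d. Plxnc1, the receptor of Sema7a, had 27.0, 32.0 and 37.0 CPM in MCAO cortex at 18 months and 17.4, 17.7 and 27.1 CPM at 3 months, with its highest young library just inside the aged range, and a log2 change of 0.65 ± 0.13 (adjusted p = 0.00164). Unc5b had 54.9, 69.3 and 91.4 CPM at 18 months and 35.9, 43.1 and 61.1 CPM at 3 months, overlapping, with 0.66 ± 0.14 (adjusted p = 0.0023). Efnb3 was apart, with 1.03 ± 0.22 (adjusted p = 0.00391). The lowest aged MCAO library of Efnb3 had 81.0 CPM, and the highest young one 66.4 CPM. The neuropilins were higher in aged MCAO cortex by 0.52 ± 0.13 (adjusted p = 0.00994) for Nrp1 and 0.46 ± 0.12 (adjusted p = 0.012) for Nrp2, overlapping between the ages. In the fit of the MCAO groups alone both calls ended (adjusted p = 0.0717 for Nrp1 and 0.0647 for Nrp2), and under spike-in scaling that of Nrp2 ended (0.70, adjusted p = 0.0622). The calls of Plxnb3 and Sema3d also ended with the MCAO groups alone, and those of Plxnc1, Unc5b and Efnb3 held. Plxnb3 was higher by 0.91 ± 0.26 (adjusted p = 0.0249), a call that ended without MCAO libraries A or C of 3 months or MCAO libraries A, D or E of 18 months (adjusted p = 0.0504 to 0.0583). Sema3d was higher by 0.75 ± 0.24 (adjusted p = 0.043), a call that ended in 11 of the 24 fits that left out 1 library, with adjusted p up to 0.0966.

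Those lower in aged MCAO cortex were Epha3, Epha4, Epha6, Epha8, Ephb6, Robo2, Sema4f, Sema4g, Slit2 and Unc5d. Epha8 had 2.10, 2.23 and 3.12 CPM in MCAO cortex at 18 months and 2.87, 5.95 and 7.77 CPM at 3 months, overlapping through aged library E and young library F, and a log2 change of -1.15 ± 0.24 (adjusted p = 0.00273). Sema4f was apart, at 21.4, 24.1 and 28.4 CPM in MCAO cortex at 18 months and 28.9, 33.4 and 42.4 CPM at 3 months, with -0.52 ± 0.11 (adjusted p = 0.00398). Slit2 had 34.1, 40.8 and 48.8 CPM at 18 months and 45.4, 66.1 and 74.5 CPM at 3 months, overlapping, with -0.60 ± 0.14 (adjusted p = 0.00578), in the direction it also had in control cortex. Sema4g had 5.23, 5.98 and 7.15 CPM at 18 months and 7.08, 8.97 and 11.2 CPM at 3 months, with -0.58 ± 0.16 (adjusted p = 0.0173), a call that ended without A and C of MCAO and in the fit of the MCAO groups alone. Its control levels were 5.61, 6.22 and 8.79 CPM at 18 months and 6.85, 8.22 and 9.95 CPM at 3 months. Ephb6, whose levels are given above, had -0.79 ± 0.17 (adjusted p = 0.00411).

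The remaining 5 calls were close to the threshold and ended in the fit of the MCAO groups alone. Epha3, a receptor of ephrin-A ligands, had 2.32, 4.51 and 7.31 CPM in MCAO cortex at 18 months and 5.15, 8.24 and 9.57 CPM at 3 months, and 4.79, 4.99 and 8.81 CPM in control cortex at 18 months and 7.79, 8.32 and 11.4 CPM at 3 months. Its log2 change after MCAO was -0.79 ± 0.23 (adjusted p = 0.0261), and the call ended without MCAO library C of 3 months or MCAO libraries B, C or E of 18 months (adjusted p = 0.0551 to 0.0771). Epha4 (-0.30 ± 0.09, adjusted p = 0.035) lost its call without MCAO libraries B or E of 3 months or MCAO libraries A, C, E or F of 18 months (adjusted p = 0.0589 to 0.0904). Epha6 (-1.09 ± 0.32, adjusted p = 0.0279) lost it without MCAO libraries C or E of 3 months or MCAO libraries B, C or D of 18 months (adjusted p = 0.0527 to 0.0685). Robo2 (-0.37 ± 0.11, adjusted p = 0.0274) lost it without MCAO libraries D or E of 3 months or MCAO libraries B, C or E of 18 months (adjusted p = 0.0536 to 0.0861). Unc5d (-0.62 ± 0.18, adjusted p = 0.0278) lost it without MCAO libraries D or E of 3 months or MCAO libraries C or E of 18 months (adjusted p = 0.0656 to 0.0805). In the other direction, several members passed when 1 library was left out. Robo4 passed without MCAO library A of 3 months (0.91, adjusted p = 0.0111), Ntn1 without MCAO libraries D or F of 3 months or control library D of 3 months or control library B of 18 months (0.81 to 1.07, adjusted p = 0.0118 to 0.0489), Ephb4 without MCAO library A of 18 months or control library A of 18 months (0.70 to 0.84, adjusted p = 0.0322 to 0.0408) and Sema4c without MCAO libraries B or F of 3 months or MCAO library D of 18 months or control library A of 18 months (0.36 to 0.45, adjusted p = 0.0201 to 0.0492). Plxnd1 passed without control library A of 18 months (0.40, adjusted p = 0.0475), Ntng1 without MCAO library F of 18 months (-0.68, adjusted p = 0.00396), Plxna4 without MCAO library A of 3 months (-0.45, adjusted p = 0.025) and Robo3 without MCAO library A of 3 months or MCAO library E of 18 months or control library F of 18 months (-0.74 to -0.59, adjusted p = 0.0328 to 0.0401).

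**Figure D4:**
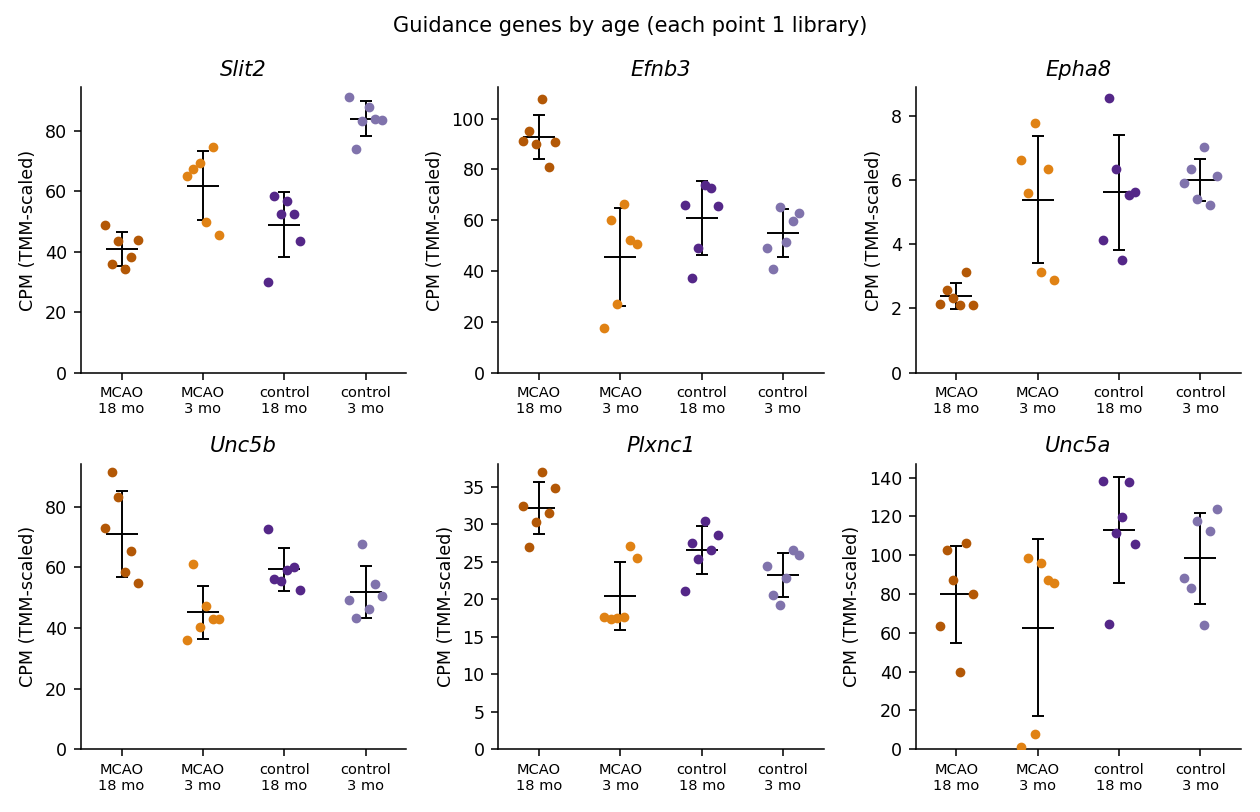
CPM (TMM-scaled) of 6 members by age, 1 point per library, with mean and SD bars, in the order MCAO 18 months, MCAO 3 months, control 18 months and control 3 months. Slit2 is lower at 18 months in both conditions, Efnb3 lies at 81.0 CPM or above in aged MCAO cortex and at 66.4 CPM or below in young MCAO cortex, and the Unc5a panel shows the 2 young MCAO libraries at 1.33 and 7.77 CPM.

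Whether MCAO acted differently at 18 and 3 months was tested directly, and no member passed (edgeR and DESeq2 each gave 0 calls, and 12 members had an unadjusted p under 0.05). Over all genes 0.0822% passed at the adjusted threshold. Genes with an unadjusted p under 0.05 were not counted over all genes, so the 12 are not shown to exceed that share. The smallest p belonged to Ntn5, with a log2 difference, 18 minus 3 months, of -0.91 ± 0.27 (95% interval -1.45 to -0.37, adjusted p = 0.193), and it passed without MCAO library F of 3 months (-1.05, adjusted p = 0.0453). For Nrp2 the difference was 0.55 ± 0.17 (0.21 to 0.88, adjusted p = 0.205) and for Nrp1 0.53 ± 0.19 (0.16 to 0.90, adjusted p = 0.276). Epha8 stood at -1.04 ± 0.33 (adjusted p = 0.214), Sema3c at 0.66 ± 0.22 (adjusted p = 0.242) and Efnb3 at 0.88 ± 0.32 (adjusted p = 0.279). A call at 1 age alone, such as those of Epha2, Slit3 or Unc5c, is therefore not shown to differ from the other age.

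Downstream of the guidance receptors, of 48 tested effectors of these pathways 8 rose and 17 fell at 3 months, with a median log2 change of -0.07, and 11 rose and 14 fell at 18 months, with a median of -0.13. At 3 months that is 16.7% that rose and 35.4% that fell, beside 20.1% and 17.3% of all tested genes. At 18 months it is 22.9% and 29.2%, beside 23.7% and 21.5% of all genes. This list and that of the partners below were chosen by hand, with earlier results of these data known. Fes, a tyrosine kinase of plexin signalling and of myeloid cells, rose by 2.81 ± 0.39 at 3 months and 3.24 ± 0.40 at 18 months (adjusted p = 1.94e-06 and 1.84e-07). Srgap1, a GTPase-activating protein of Slit and Robo signalling, rose by 0.86 ± 0.17 and 0.80 ± 0.17, and Dpysl3, a collapsin response mediator, by 0.46 ± 0.15 and 1.29 ± 0.16. Chn1, the Rac regulator that acts below Epha4, fell, with -0.73 ± 0.10 at 3 months and -0.97 ± 0.10 at 18 months. Ngef, the exchange factor of EphA receptors, was at -0.46 ± 0.13 and -0.99 ± 0.13, and Sipa1l1, a Rap regulator of dendritic spines, at -0.66 ± 0.12 and -0.87 ± 0.12, each called at both ages.

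Of 33 tested other ligands, receptors and partners of guidance and growth inhibition, 6 rose and 15 fell at 3 months (median -0.22), and 9 rose and 14 fell at 18 months (median -0.12). The share that rose was 18.2% at 3 months and 27.3% at 18 months, and the share that fell 45.5% and 42.4%, beside the shares of all genes given for the effectors. Itgb1, the integrin chain bound by Sema7a, rose by 1.72 ± 0.15 and 1.94 ± 0.15. Kdr, the VEGF receptor that pairs with neuropilins, rose by 1.37 ± 0.18 and 1.52 ± 0.18, and Cd72, the immune receptor of Sema4d, by 4.78 ± 0.45 and 4.78 ± 0.41. Ptprd, a receptor phosphatase of synapses, fell at both ages (-0.52 ± 0.09 and -0.67 ± 0.09), as did Flrt2, a ligand of Unc5d, with -0.58 ± 0.10 and -0.78 ± 0.10. Flrt1 fell as well, with -0.40 ± 0.13 and -0.72 ± 0.13. With age, 2 effectors rose and 5 fell after MCAO, and 1 of the other partners rose and 4 fell, beside 6.4% of all genes that rose and 4.51% that fell. In control cortex no effector rose and 1 fell (2.08%), and of the partners none rose and 2 fell (6.06%). Beside these, 0.349% of all genes rose and 0.253% fell between ages in control cortex.

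Some members lie next to each other in the GENCODE M21 annotation of GRCm38. Sema3d (12383385 to 12588948), Sema3a (13125414 to 13602565) and Sema3e (14025276 to 14256689) follow each other on chromosome 5. Of these Sema3d rose at 18 months, and Sema3a and Sema3e fell at both ages. Robo4 and Robo3 are neighbours on chromosome 9, where Robo3 (37415669 to 37433246) lies on the other strand with its 3′ end towards that of Robo4. Robo4 was the called member of the pair. Efna1 (89271733 to 89281142), Efna3 (89313899 to 89322965) and Efna4 (89333390 to 89338028) adjoin on chromosome 3, where Efna1 rose at both ages and Efna3 fell at 18 months. In 14 of the 70 members an exon overlaps a gene on the other strand, and in 4 an exon overlaps a gene on the same strand, so their counts are less certain. Besides Ephb4 and Ntn5, the called members concerned were Ephb1, Epha6, Epha10, Efna3, Sema4c, Plxna1, Plxna4 and Unc5c on the other strand, and Nrp1 and Plxnc1 on the same strand.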

How the data were processed

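RNA of 24 cortex samples, 1 per mouse, was measured by sequencing the 3′ ends of transcripts (a QuantSeq kit with 400 ng of total RNA, per the labels' protocols). The deposited counts are whole reads per gene, and Trimmomatic, HTSeq, DESeq2 and the mouse build GRCm38 are named in the submitters' processing notes. The sources used here give no aligner, annotation or strand setting. A second deposited signal, normalised by the authors, equals those counts divided by 1 constant per library and was not tested. Rows for spike-ins and for unassigned reads (no feature: 25.7 to 34.5% of reads; ambiguous: 0.464 to 0.581%) were left out of library sizes.

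Genes passing edgeR's filterByExpr (minimum count 10) were kept, 14599 of 46983, and 32384 were not tested. Counts of all 24 libraries were fitted in 1 model with edgeR 4.0.16 (R 4.3.3, limma 3.58.1), TMM scaling, glmQLFit and glmQLFTest. The model gave 5 comparisons: MCAO with control cortex of the same age, aged with young cortex of the same condition, and the difference of the MCAO effects. The fit was checked on simulated counts. Standard errors are the log2 change divided by the square root of F. Groups and letters A to F came from the sample titles. All pairs of libraries within groups differed by more than sampling noise.

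Members are all genes with a symbol of the named families, and the lists of effectors, partners and cell type markers were chosen by hand. Members and lists were chosen with earlier results of these data known. Full values are given for the member with the smallest p in each direction of each family and for every member called between ages. The smallest p-values name the pathway genes. Alternatives were DESeq2 1.42.0, its size factors, total-count and spike-in scaling, no filter, the compared groups alone, a replicate block, and left-out libraries. Promoters came from RefSeq.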

Additional observations from a re-analysis of the deposited data

Results flagged for a closer look

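In groups of 6 libraries, Dixon's test at 95% marked 1 library as far from the others for 7 of the 136 groups searched, over the 34 members given with full values. Chance marks about 1 in 20 groups. Robo4 had 16.4 CPM in MCAO library A at 3 months, against 5.10 to 8.42 CPM in the other 5. The same library had the highest sums of endothelial, microglia, macrophage and fibroblast markers of its group and the most gene counts, and the cause was not tested. Ntn5 had 6.89 CPM in MCAO library F at 3 months, against 13.7 to 17.7 CPM in the others. Epha2 had 1.58 CPM in control library C at 18 months, against 0 to 0.553 CPM. At 3 months control library E was high for Epha3, with 11.4 CPM against 7.79 to 8.65 CPM, and for Sema3g, with 6.13 CPM against 2.76 to 3.62 CPM. Control library D of that age had 5.22 CPM of Epha6, against 2.41 to 3.44 CPM, and control library C had 8.09 CPM of Slit3, against 3.62 to 5.15 CPM.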

How the results depend on the processing

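Of the 86 calls of members over the 5 comparisons, 5 were lost with DESeq2, 2 with its size factors in edgeR, 13 without the filter on low counts, 16 with total-count scaling, 21 of 85 in fits of the compared groups alone, where Epha2 at 18 months was not tested, and 24 under spike-in scaling, where 3 more changed sign: Sema4c at 3 months (-0.12) and Sema6d at 3 months (-0.060) and 18 months (-0.0038). Spike-in scaling gave 5 rising and 33 falling members at 3 months, 11 rising at 18 months, 0 calls between ages in control cortex, and 5 calls, 0 of them falling, between ages after MCAO. Over all genes it gave 33 that rose and 6 that fell between ages in control cortex, and the other counts over all genes are given above. Total counts gave 8 falling at 3 months, and no filter or the compared groups alone 10. Between ages, the compared groups alone gave 2 calls in control cortex and 7 after MCAO (3 rising, 4 falling), and DESeq2 gave 2 in control cortex. With 1 library left out, calls between ages ranged from 1 to 2 in control cortex (2 without MCAO library F of 3 months), from 11 to 20 after MCAO, from 5 to 12 for those falling, and from 0 to 1 for the difference of the MCAO effects. The causes were not tested. Of the 28 calls at 3 months 18 stayed in all 24 such fits, of the 40 at 18 months 32, and of the 17 between ages after MCAO 10.

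The labels do not say whether the letters A to F pair animals between groups. Of 36 same-letter pairs 18 correlated above 0.1 (-0.52 to 0.49), and in 9 of the 36 a library correlated best with its own letter. These correlations cannot settle whether the letters mark pairs or a shared batch. With the letter as a replicate block 29 members were called at 3 months, 40 at 18 months, 1 between ages in control cortex, 20 after MCAO and 0 for the difference, with 3 of the 86 calls lost. A fit of the compared groups alone is not possible for the difference. Members with few counts, such as Epha1, Efna4, Ntng2, Epha2 and Epha8, are limited by depth.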
